A study of Mus musculus with 17 samples.

Results

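The genes described here are 10 markers of the myotome and of skeletal muscle: the myogenic regulators Myf5, Myf6, Myod1 and Myog, the growth factor receptor gene Met, the filament and sarcomere genes Des, Acta1 and Actn2, and the acetylcholine receptor subunit genes Chrna1 and Chrng. They were chosen by name as skeletal muscle markers and found by symbol, and all 10 are among the 41709 genes of a table of TPM values (transcript abundance per unit of transcript length, with the same sum in every library). Each of the 17 libraries holds the RNA of a whole C57BL/6J mouse embryo, from 2 experiments that studied Hedgehog release and the filopodia-like extensions called cytonemes. Disp1_CS_INDEL embryos (n = 4) were taken at embryonic day 9.5 (E9.5). They carried the CS allele of Disp1 from the dam and the INDEL allele from the sire, and Disp1_WT embryos (n = 4) were wild types of the same age. Disp1 encodes the transporter-like protein that releases Hedgehog ligands from the cells that make them. Myo10_m1J embryos (n = 5) were taken at E8.5 and were homozygous for the m1J allele of Myo10, with both parents heterozygous, and Myo10_WT (n = 4) were wild types of that age. Myo10 encodes an unconventional myosin that moves along filopodia. The labels name no transgene or Cre, each library is a separate embryo, and littermates are not marked. The tissue is the whole embryo, so skeletal muscle precursors are a small share of each sample, and fewer cells of a type and less RNA per cell cannot be told apart.

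Skeletal muscle of the trunk and limbs comes from the somites. Cells of the dermomyotome that express Pax3 become committed when they switch on Myf5, Myf6 (Mrf4) or Myod1, which encode basic helix-loop-helix factors. Myog, a factor of the same family, then drives terminal differentiation, during which filament, sarcomere and acetylcholine receptor genes are transcribed. In the mouse Myf5 is the first of the 4 factors to appear, in the dorsomedial somite, Myog follows in the myotome, and Myod1 comes later. Hedgehog ligand from the notochord and floor plate is known to act on Myf5 in the part of the somite next to the neural tube. Des, Acta1 and Actn2 are also transcribed in the heart, which beats before the myotome differentiates.

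The myogenic factors bind E-boxes, hexamers with the letters CANNTG, and serum response factor binds the CArG box, which is known from actin promoters. The 250 bases before the annotated start were available for 8 of the 10 genes, from RefSeq on build GRCm38.p6. 4 of them are shown, for the differentiation factor (Myog), a receptor subunit (Chrng), a sarcomere actin (Acta1) and the earliest regulator (Myf5), because these genes fall into different patterns below. Capitals mark CANNTG hexamers and, in Acta1, also the CArG box, and each sequence reads 5′ to 3′ on the gene's own strand. They lie at chr1:134289754-134290003 (plus strand), chr1:87205561-87205810 (plus strand), chr8:123894776-123895025 (minus strand) and chr10:107486135-107486384 (minus strand).
Myog: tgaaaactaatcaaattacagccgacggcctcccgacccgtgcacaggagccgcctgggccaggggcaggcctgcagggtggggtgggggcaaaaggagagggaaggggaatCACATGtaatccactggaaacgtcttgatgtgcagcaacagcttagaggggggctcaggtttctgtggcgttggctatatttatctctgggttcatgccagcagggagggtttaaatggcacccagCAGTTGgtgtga
Chrng: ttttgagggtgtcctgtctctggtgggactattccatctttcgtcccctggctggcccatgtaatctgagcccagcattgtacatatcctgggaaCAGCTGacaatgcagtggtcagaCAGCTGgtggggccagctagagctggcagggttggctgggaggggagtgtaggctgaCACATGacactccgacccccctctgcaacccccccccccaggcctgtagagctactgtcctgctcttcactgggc
Acta1: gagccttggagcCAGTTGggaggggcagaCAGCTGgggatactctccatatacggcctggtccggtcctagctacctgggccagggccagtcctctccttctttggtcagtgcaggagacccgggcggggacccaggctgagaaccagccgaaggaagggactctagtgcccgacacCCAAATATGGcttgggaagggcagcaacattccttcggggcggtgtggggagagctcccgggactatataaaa
Myf5: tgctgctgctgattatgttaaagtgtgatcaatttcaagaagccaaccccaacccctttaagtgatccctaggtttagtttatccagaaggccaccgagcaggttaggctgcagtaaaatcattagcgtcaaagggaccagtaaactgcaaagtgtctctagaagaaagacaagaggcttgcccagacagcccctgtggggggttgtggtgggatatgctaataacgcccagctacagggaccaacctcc
The Myog window holds 2 CANNTG hexamers, CACATG beginning 138 bases and CAGTTG beginning 12 bases before the start. The Chrng window holds 3, of which 2 are CAGCTG. The Acta1 window holds 2 and a CArG box that begins 73 bases before the start, and the Myf5 window holds none. Searched on both strands, 66.2% of the 32851 promoters in the RefSeq table hold at least 1 CANNTG, 12.2% hold at least 3, 13.0% hold CAGCTG (itself a CANNTG hexamer) and 1.47% hold a CArG box in windows of the same length. These matches describe letters and not bound sites.

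Facts of the libraries bear on the muscle values in several places. Myo10 TPM was 3.61 ± 0.885 in Myo10_m1J (SD, n = 5) and 25.8 ± 6.02 in Myo10_WT (SD, n = 4), and Disp1 TPM was 14.3 ± 1.98 in Disp1_CS_INDEL and 17.5 ± 1.74 in Disp1_WT (SD, n = 4 each). Structural RNAs such as 7SK and 7SL took 0.00524% to 0.0132% of TPM in the 8 E9.5 libraries and 29.7% to 44.5% in the 9 E8.5 libraries, so that age and library make-up cannot be told apart. Transcripts of 10 somite segmentation and caudal genes (T, Msgn1, Tbx6 and others) summed to 18.4 TPM in Disp1_CS_INDEL replicate 1 and 15.4 TPM in Disp1_WT replicate 3, against 103 to 167 TPM in the other E9.5 embryos. At E8.5 that sum was 63.6 TPM in Myo10_WT replicate 1, against 130 to 320 TPM in the others. The summed TPM of 9 decidual and trophoblast genes, markers of maternal and placental tissue, was 785 in Disp1_WT replicate 3 and 244 in Myo10_m1J replicate 2, and at most 33.8 in any other library. Several fits and correlations that rest on these libraries are given with and without them. Ranges (apart from those of Acta1, Actn2 and Des at E8.5), coefficients of variation and counts of gene lists are given only with them.

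Myog is the gene that marks the onset of differentiation. It had 9.80, 13.0, 7.53 and 4.31 TPM in Disp1_CS_INDEL embryos, against 9.53, 9.80, 14.3 and 6.30 TPM in Disp1_WT embryos. In every Myo10_m1J embryo it was listed at 0, and in Myo10_WT embryos it was listed at 0.0448, 0, 0 and 0 TPM. Myog was thus listed above 0 in all 8 embryos at E9.5 and in 1 of 9 at E8.5, and the groups of equal age overlapped or were both at or near 0. Myf5, the earliest regulator, had 4.51, 3.97, 4.00 and 2.82 TPM in Disp1_CS_INDEL embryos, against 3.66, 4.89, 4.99 and 3.64 TPM in Disp1_WT embryos. It was already listed above 0 in all 9 E8.5 embryos, with 0.0516, 0.104, 0.567, 0.383 and 0.0952 TPM in Myo10_m1J and 0.386, 0.280, 0.130 and 0.650 TPM in Myo10_WT. Of the 4 regulators Myf5 had the highest median TPM at E8.5 (0.280) and Myog the highest at E9.5 (9.66).

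Myf6 acts in commitment in the early somite and again in maturing fibres. It had 1.35, 2.04, 1.58 and 0.809 TPM in Disp1_CS_INDEL embryos, against 1.94, 1.44, 2.43 and 1.58 TPM in Disp1_WT embryos. At E8.5 it reached at most 0.0514 TPM and was listed at 0 in 6 of 9 embryos. Myod1, the regulator that turns on later, stayed under 1 TPM in all 17 embryos. Its TPM was 0.183, 0.391, 0 and 0.137 in Disp1_CS_INDEL, 0.320, 0.181, 0.103 and 0.172 in Disp1_WT, 0.116, 0.116, 0.0302, 0 and 0.142 in Myo10_m1J, and 0.180, 0.174, 0.233 and 0.116 in Myo10_WT. Unlike the other 3 regulators, Myod1 overlapped between the ages.

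**Figure D1:**
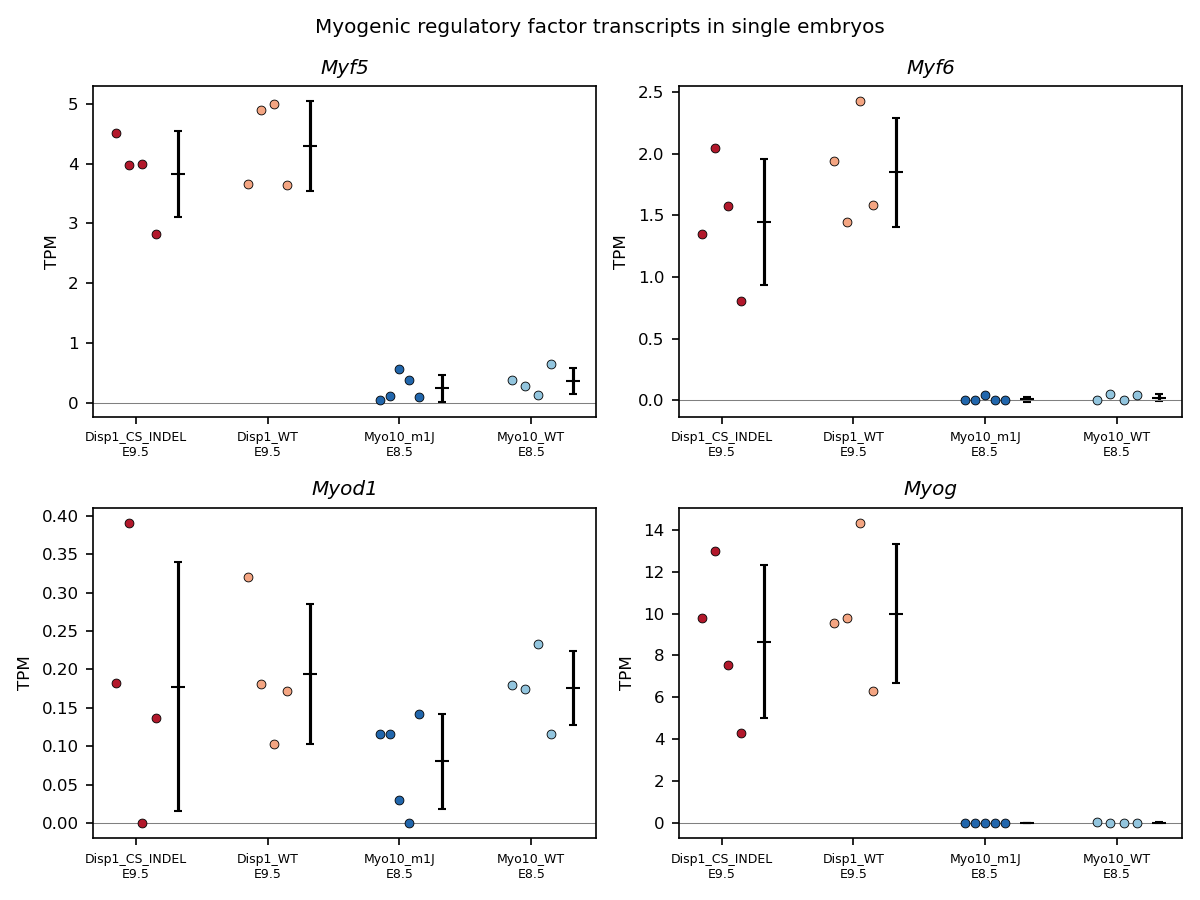
TPM of the myogenic regulator genes Myf5, Myf6, Myod1 and Myog in each embryo of the 4 groups, with each group's mean and SD as a bar. Myog lies between 4.31 and 14.3 TPM in the 8 E9.5 embryos and at 0.0448 TPM or less at E8.5, whereas Myod1 stays at or under 0.391 TPM at both ages.

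Met encodes the receptor of hepatocyte growth factor, which releases muscle precursors from the dermomyotome towards the limb buds, and it is also transcribed in many epithelia. Its TPM was 6.32, 6.31, 5.67 and 6.44 in Disp1_CS_INDEL, against 5.93, 6.11, 5.34 and 5.81 in Disp1_WT. It was 10.1, 6.42, 7.86, 5.39 and 9.16 in Myo10_m1J, against 9.08, 10.7, 8.65 and 8.49 in Myo10_WT. Met is the single gene of the 10 whose wild-type values were lower at E9.5 than at E8.5. Within Myo10_m1J 3 of 5 embryos lay below every Myo10_WT embryo, and the other 2 lay within the Myo10_WT range.

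The acetylcholine receptor subunits mark the later step at which the muscle membrane becomes excitable by nerve. Chrng encodes the gamma subunit of the fetal receptor and had 0.507, 0.572, 0.310 and 0.583 TPM in Disp1_CS_INDEL, against 0.653, 0.276, 0.675 and 0.441 TPM in Disp1_WT. At E8.5 it reached at most 0.0312 TPM. Chrna1, which encodes the ligand-binding alpha subunit, had 0.248, 0.256, 0.0802 and 0.189 TPM in Disp1_CS_INDEL, against 0.166, 0.169, 0.335 and 0.291 TPM in Disp1_WT, and at most 0.0458 TPM at E8.5. Both genes were listed above 0 in all 8 E9.5 embryos without reaching 1 TPM in any.

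Des encodes desmin, the intermediate filament of muscle, Acta1 the skeletal alpha-actin and Actn2 an alpha-actinin of the Z-disc. Acta1 had the highest TPM of the 10 genes at E9.5, with 121, 76.4, 85.1 and 85.0 in Disp1_CS_INDEL and 116, 84.6, 91.6 and 92.1 in Disp1_WT. Des had 42.0, 48.3, 36.1 and 47.6 TPM in Disp1_CS_INDEL, against 53.2, 47.6, 37.2 and 44.9 TPM in Disp1_WT. Actn2 had 41.0, 28.7, 35.4 and 29.6 TPM in Disp1_CS_INDEL, against 35.1, 33.8, 28.2 and 32.4 TPM in Disp1_WT. For all 3 genes the mutant and wild-type ranges overlapped. Acta1 shares long stretches of sequence with the cardiac and smooth muscle actin genes Actc1 and Acta2, and the sources used here do not give how shared reads were assigned, so its level is uncertain to that extent. Actc1 had 832 to 1117 TPM in Disp1_CS_INDEL and 904 to 1041 TPM in Disp1_WT. With group means removed, Pearson r of Acta1 with Actc1 was 0.96 at E9.5 and 0.98 at E8.5. The part of Actc1 reads in the Acta1 values, here and below, was not tested.

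At E8.5 these 3 genes spread widely between embryos of 1 group. Acta1 had 9.24, 38.0, 26.2, 37.4 and 10.2 TPM in Myo10_m1J, against 51.1, 17.1, 4.34 and 25.2 TPM in Myo10_WT. Actn2 had 1.70, 6.69, 5.07, 6.04 and 0.627 TPM in Myo10_m1J, against 13.4, 1.88, 0.757 and 4.63 TPM in Myo10_WT. Des had 14.8, 42.0, 11.9, 12.6 and 7.16 TPM in Myo10_m1J, against 17.4, 11.2, 5.30 and 12.0 TPM in Myo10_WT. The highest embryo exceeded the lowest by 11.8-fold for Acta1, 21.4-fold for Actn2 and 7.93-fold for Des over the 9 E8.5 embryos. Over the 8 E9.5 embryos these ratios were 1.58, 1.46 and 1.47. At E8.5 the highest embryo was Myo10_WT replicate 1 for Acta1 and Actn2 and Myo10_m1J replicate 2 for Des. Both stand apart in caudal or decidual transcripts, and the E8.5 ratios take them as the highest embryos. Without both embryos Acta1 ranged over 4.34 to 37.4 TPM, Actn2 over 0.627 to 6.04 TPM and Des over 5.30 to 14.8 TPM.

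**Figure D2:**
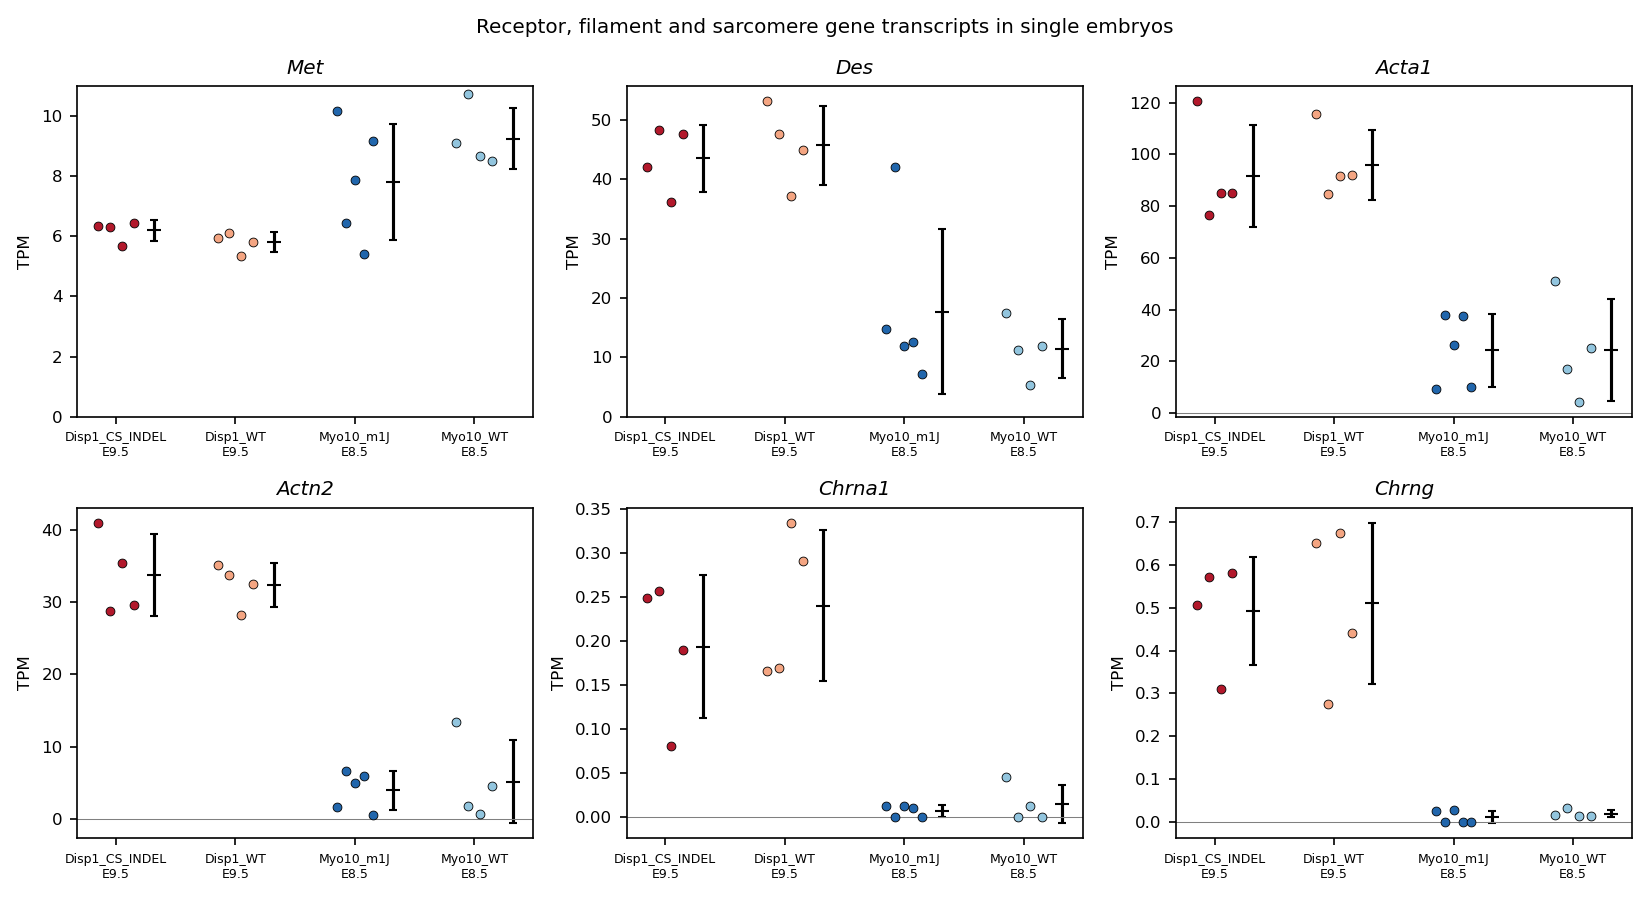
TPM of the receptor, filament and sarcomere genes Met, Des, Acta1, Actn2, Chrna1 and Chrng in each embryo of the 4 groups, with each group's mean and SD as a bar. Des, Acta1 and Actn2 lie higher at E9.5 than in the wild types at E8.5, Met lies lower, and Myo10_m1J replicate 2 stands above its group for Des at 42.0 TPM.

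Because TPM is per length, levels can be set in order across genes. In Disp1_WT the order was Acta1, Des, Actn2, Myog, Met, Myf5, Myf6, Chrng, Chrna1 and Myod1. The ranges of neighbours in that order overlapped for Chrng and Chrna1 and for Chrna1 and Myod1, and no other pair of neighbours overlapped. In Disp1_CS_INDEL the ranges of Des and Actn2 and those of Myog and Met overlapped as well, whereas those of Chrng and Chrna1 did not.

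The Disp1 comparison asks whether muscle transcripts differ between Disp1_CS_INDEL and Disp1_WT embryos at E9.5. Hedgehog release itself was not measured in these libraries. None of the genes tested passed. limma on log2(TPM + 1) tested the 7 with at least 1 TPM in at least 4 of the 8 libraries (not Myod1, Chrna1 and Chrng), and 0 of 7 passed a Benjamini-Hochberg adjusted p of 0.05, where 0.0301% of all 13294 genes tested passed. At an unadjusted p under 0.05 also 0 of 7 passed, where 2.26% of all genes did, and the groups overlapped for all 10 genes, where 1.55% of genes tested did not overlap. Myf6 had the smallest p of the 7, with a log2 fold change of -0.23 (SE 0.17, 95% interval -0.61 to 0.14, limma adjusted p 1.00). For Myf5, the regulator known to respond to Hedgehog ligand, the log2 fold change was -0.14 (95% interval -0.44 to 0.17). Myog had -0.22 with a wider interval of -0.87 to 0.42, and its TPM averaged 8.65 ± 3.65 in Disp1_CS_INDEL and 9.99 ± 3.31 in Disp1_WT (SD, n = 4 each). The other 4 lay between -0.08 for Acta1 and 0.08 for Met. Leaving out Disp1_CS_INDEL replicate 1 and Disp1_WT replicate 3, the embryos low in caudal transcripts, moved Acta1 to -0.23, Des to -0.15, Actn2 to -0.11, Myog to -0.13 and Myf6 to -0.13, and 0 of 7 passed. Without Disp1_CS_INDEL replicate 4, the lowest for Myf5, Myf6 and Myog, Myf5 was at -0.03, Myf6 at -0.10 and Myog at 0.03. These intervals do not show that the levels were equal. Myog, Des and Chrng lie on chromosome 1, as Disp1 does.

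The Myo10 comparison asks the same of the m1J allele of the filopodial myosin at E8.5. The regulators and receptor subunits were below the filter, and 4 of the 10 genes were tested. 0 of 4 (Met, Des, Acta1 and Actn2) passed the adjusted p, where 0.00796% of all 12560 genes tested passed (Myo10 itself), and 0 of 4 had an unadjusted p under 0.05, where 6.8% of genes did. The groups overlapped for these 4, where 0.995% of genes tested did not overlap. Met had the smallest p, with a log2 fold change of -0.24 (SE 0.16, 95% interval -0.60 to 0.11, limma adjusted p 0.473) beside a median of -0.16 over all genes. That median was 0.01 after median-of-ratios scaling, under which Met was at -0.07. Des had 0.44 (95% interval -0.44 to 1.32), which fell to 0.08 without Myo10_m1J replicate 2, the embryo with 42.0 TPM of Des and 146 TPM of the decidual prolactin gene Prl8a2. In Disp1_WT replicate 3, where Prl8a2 was at 551 TPM, Des was the lowest of its group, and the part of decidual tissue in the Des value was not tested. The intervals of Acta1 (-1.08 to 1.44) and Actn2 (-1.33 to 1.19) span changes of more than a doubling either way. The fold change of the Disp1 mutants minus that of the Myo10 mutants passed for 0 of 7 genes, where 0.0216% of all 13910 genes passed, and 0 of 7 had an unadjusted p under 0.05, where 4.95% did. Its smallest p was that of Met (0.32, SE 0.19, limma adjusted p 0.586).

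**Figure D3:**
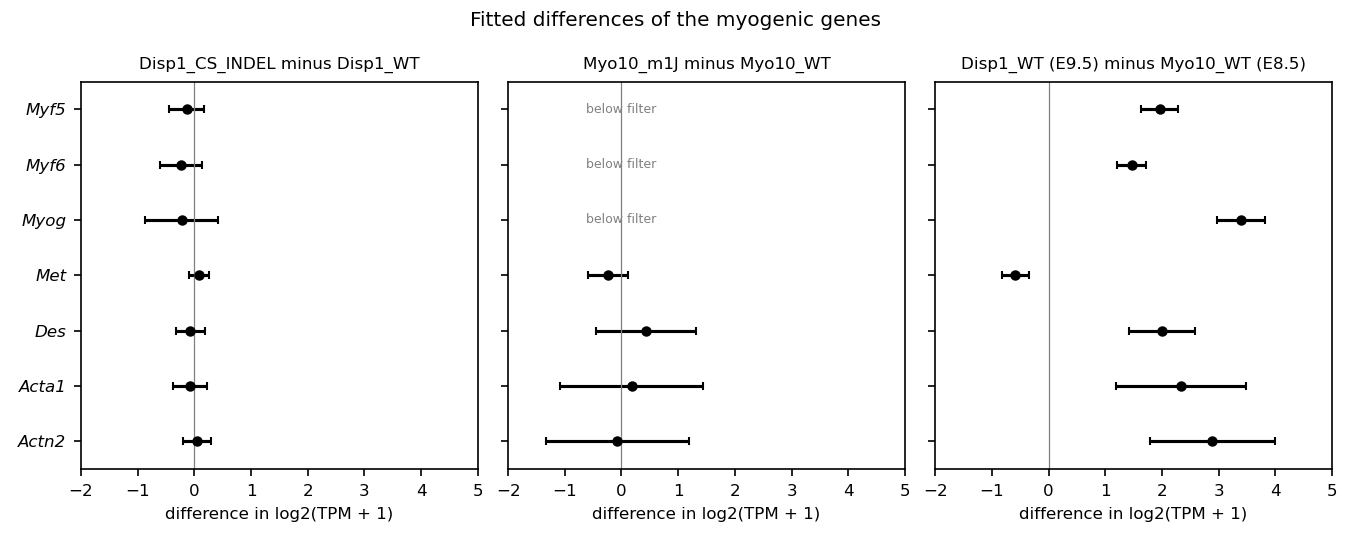
Log2 fold changes on the log2(TPM + 1) scale in the Disp1, Myo10 and age comparisons of the 7 genes tested in at least 1 of them, as points with 95% intervals, and genes below the filter marked as such. The intervals cross 0 for each gene tested in the mutant comparisons, and for none in the age comparison.

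Between the ages most muscle genes differed, as most genes did. Disp1_WT (E9.5) was set against Myo10_WT (E8.5), which differ in age and in experiment. Of the 7 genes tested, 6 were higher, where 69.4% of all 13397 genes tested were higher, and 1 was lower (Met), where 10.2% were. The ranges did not overlap for 8 genes that were higher at E9.5 (all but Myod1 and Met), where 66.1% of genes tested had such ranges, and for Met, where 7.96% did. Myf5, Myf6 and Myog passed the filter through the E9.5 libraries alone, so they had to differ. The 4 genes with at least 1 TPM on average at both ages were Met, Des, Acta1 and Actn2. The log2 fold change was 1.99 for Des (SE 0.26, limma adjusted p 3.29e-05), 2.34 for Acta1 (SE 0.52, adjusted p 0.0016) and 2.89 for Actn2 (SE 0.50, adjusted p 0.000262). Met had -0.59 (SE 0.11, adjusted p 0.000453). Leaving out Disp1_WT replicate 3 and Myo10_WT replicate 1 gave 2.31 for Des, 2.84 for Acta1, 3.51 for Actn2 and -0.56 for Met. Leaving out Myo10_WT replicate 3, the lowest for Des, Acta1 and Actn2, gave 1.70, 1.72 and 2.43 for these genes, and their calls held. The largest was that of Myog at 3.39 (SE 0.19), a difference that the added 1 TPM holds down and that became 6.46 with a pseudocount of 0.1, as Myf5 at 1.96 became 3.36 and Myf6 at 1.46 became 3.98. Without a filter Chrng (0.56, limma adjusted p 0.00036) and Chrna1 (0.29, adjusted p 0.000812) were also higher and Myod1 (0.02, adjusted p 0.786) did not pass.

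These age values depend on the scale. The median of all genes was 0.62, and it was 0.02 after median-of-ratios scaling, 0.08 with structural RNAs left out and -0.16 over protein-coding genes alone. Over all genes 9304 were higher and 1364 lower as deposited, 4958 and 4735 after median-of-ratios scaling, 5496 and 4056 without structural RNAs, and 3398 and 5883 over protein-coding genes. The 7 muscle genes kept direction and call in each, with Myf5 at 1.59, Myf6 at 1.24, Myog at 3.08, Des at 1.35, Acta1 at 1.69, Actn2 at 2.32 and Met at -1.18 after median-of-ratios scaling. Over protein-coding genes alone Des was at 1.18, Acta1 at 1.51 and Met at -1.41.

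Regulators upstream of the myogenic factors were counted in the same fits. Of 13 dermomyotome and muscle progenitor regulators, all were tested. After median-of-ratios scaling 9 were higher and 1 was lower at E9.5, beside the counts over all genes given above for that scaling. As deposited 10 were higher and 1 was lower, where 69.4% and 10.2% of all genes tested were. Their median log2 fold change was 1.36, beside 0.62 over all genes tested. Of the 10 that averaged at least 1 TPM at both ages 8 were higher and 1 was lower, where 69.5% and 8.61% of all such genes were. The homeobox genes Meox2 (2.77) and Meox1 (1.80), the somite gene Dmrt2 (2.24) and Lbx1 (1.85), which marks muscle precursors bound for the limb, rose most, and Meox2 and Lbx1 averaged under 1 TPM in Myo10_WT. Six4, a homeobox gene that acts upstream of the myogenic factors, was the lower one at -0.58. In the mutant comparisons 0 of 12 (Disp1) and 0 of 11 (Myo10) passed, where 0.0301% and 0.00796% of all genes tested passed. Pax3, the regulator of the dermomyotome that is also transcribed in the dorsal neural tube, had the smallest p in the Disp1 comparison. Its TPM was 20.3 to 22.1 in the 4 Disp1_CS_INDEL embryos, against 15.4 to 18.1 in the 4 Disp1_WT embryos, without overlap (log2 fold change 0.36, SE 0.068, limma adjusted p 0.339). In that comparison 1.55% of all genes tested did not overlap. Pax7 of the same list and Msx1 of the next list were among the other genes without overlap. In the Myo10 comparison the smallest p was that of Meox1, at -0.43 (limma adjusted p 0.473).

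Of 7 genes of migrating muscle precursors, 6 were tested between the ages and all 6 were higher, where 69.4% of all genes tested were, and their median of 0.55 was below the 0.62 over all genes. Among them were Cxcl12 (2.44), the ligand that guides Cxcr4-bearing precursors, Lbx1, which passed the filter through the E9.5 libraries alone, and Gab1 (0.44), the adaptor that acts below Met. After median-of-ratios scaling 2 were higher and 2 lower, beside the counts over all genes given above for that scaling, and Gab1 was at -0.22. In the Disp1 comparison 0 of 7 passed, where 0.0301% of all genes tested did, with the smallest p at Msx1 (0.30, limma adjusted p 0.907). In the Myo10 comparison 0 of 5 passed, where 0.00796% of all genes tested did, with the smallest p at Gab1 (-0.32, limma adjusted p 0.473).

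Among 24 skeletal muscle differentiation genes, 14 were tested between the ages. After median-of-ratios scaling 11 were higher and 1 lower, beside the counts over all genes given above for that scaling. As deposited 13 were higher, where 69.4% of all genes tested were, with a median log2 fold change of 1.80. Of the 8 that averaged at least 1 TPM at both ages 7 were higher, where 69.5% of all such genes were, with a median of 1.52 beside 0.61. These 8 include the cardiac actin gene Actc1, and Myl4 and Mef2c, which are also transcribed in the heart. The heart's part in these counts was not tested. Vgll2, a cofactor of TEAD factors, had 3.64, the fast troponin C gene Tnnc2 had 2.52, the embryonic myosin heavy chain gene Myh3 had 2.28 and the fast myosin light chain gene Mylpf had 2.18. Vgll2, Tnnc2 and Myh3 were under 1 TPM in every E8.5 embryo and passed the filter through the E9.5 libraries alone. Myh3 had 3.26 to 6.49 TPM in Disp1_CS_INDEL and 3.37 to 6.59 TPM in Disp1_WT, and at most 0.177 TPM at E8.5. The fusion genes Mymk and Mymx, needed to make multinucleate fibres, reached 1.82 and 1.03 TPM at E9.5. Myh1, Myh2 and Myh4, the myosin heavy chains of adult fibres, stayed at or under 0.104 TPM in all 17 embryos. The other 3 genes of that list of adult-type muscle genes were higher, with Mb reaching 1.55 TPM, Pvalb 1.84 TPM and Actn3 lying at 1.94 to 6.04 TPM. For the mutants 0 of 15 (Disp1) and 0 of 8 (Myo10) differentiation genes passed, where 0.0301% and 0.00796% of all genes tested passed. Their median log2 fold changes were -0.01 and -0.02.

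Heart genes are given beside the filament genes that the heart shares. After median-of-ratios scaling 8 of 18 heart genes were higher and 4 lower at E9.5, beside the counts over all genes given above for that scaling. As deposited 13 were higher and 3 lower, where 69.4% and 10.2% of all genes tested were. Their median log2 fold change was 1.23, with Nppa (5.28), Myl2 (4.39), Tnni3 (2.92) and Myl3 (2.62) ahead. Their summed TPM was 1534 to 1694 in Disp1_WT and 350 to 1247 in Myo10_WT, and none of the 18 was listed at 0 in any embryo. The heart's part in the age differences of Des, Acta1 and Actn2 was not tested. Of 5 smooth muscle genes, 3 of the 4 tested were higher (Tagln 1.65, Acta2 1.38 and Cnn1 0.95) and Myocd was lower (-1.01), where 69.4% and 10.2% of all genes tested were. After median-of-ratios scaling 2 were higher and 1 was lower, beside the counts over all genes given above for that scaling. In the mutant comparisons 0 of 17 heart genes passed in either, where 0.0301% (Disp1) and 0.00796% (Myo10) of all genes tested passed.

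Within E8.5, Acta1 and Actn2 followed most of the heart genes from embryo to embryo. Over the 9 embryos, with each group's mean removed on the log2(TPM + 1) scale, the median Pearson r with 17 heart genes was 0.95 for Acta1 and 0.94 for Actn2, where the median over all genes was 0.12 and 0.04. An r over 0.8 was reached with 12 of 17 heart genes for each, where 4.95% and 4.21% of all genes reached it. The lowest r with a heart gene was -0.38 for Acta1 and -0.37 for Actn2. Des followed the heart genes less closely, with a median r of 0.71 and 1 of 17 over 0.8. For Des the median over all genes was 0.37, and 4.50% of them were over 0.8. The difference of Des from Acta1 and Actn2 was not tested. Summed heart TPM was 631, 886, 741, 817 and 464 in Myo10_m1J and 1247, 643, 350 and 775 in Myo10_WT, so that Myo10_WT replicates 1 and 3, the extremes of Acta1, were also the extremes of the heart sum. Over 7 embryos, without Myo10_m1J replicate 2 and Myo10_WT replicate 1, the median r was 0.91 for Acta1, 0.91 for Actn2 and 0.67 for Des, with 11, 11 and 5 of 17 over 0.8. Among all genes 4.47%, 3.30% and 2.65% were over 0.8 in these 7 embryos. At E9.5 the 17 heart genes that passed the filter held Nppa in place of Ttn. With these the median r was 0.60 for Acta1, 0.62 for Actn2 and -0.30 for Des (n = 8), with 0 of 17 over 0.8. Among all genes 1.72%, 7.37% and 1.66% were over 0.8 at E9.5. All values of 1 embryo come from 1 library and share its total and its structural RNA content.

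**Figure D4:**
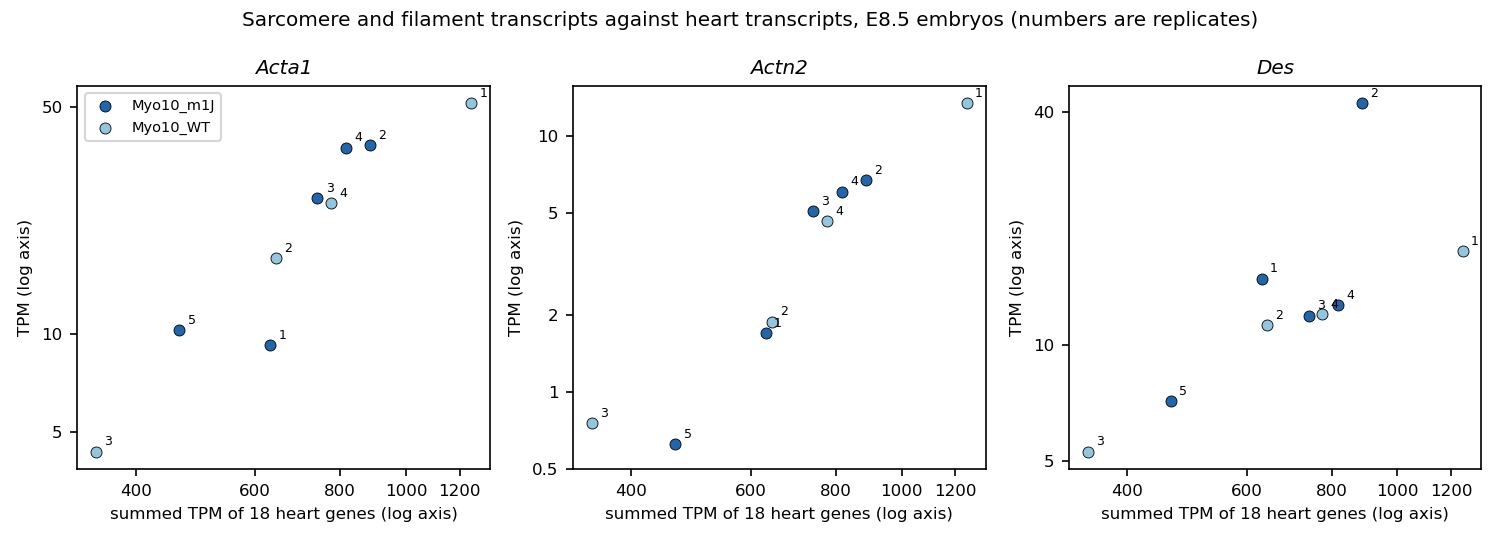
TPM of Acta1, Actn2 and Des against the summed TPM of 18 heart genes in the 9 E8.5 embryos, on log axes, with replicate numbers beside the points. Among Myo10_WT embryos replicate 1 is the highest and replicate 3 the lowest on both axes in each panel, and for Des Myo10_m1J replicate 2 lies above the other embryos at 42.0 TPM.

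At E9.5 Myog varied more between embryos than most genes did. Myog differed 3.32-fold between the highest embryo (Disp1_WT replicate 3) and the lowest (Disp1_CS_INDEL replicate 4), Myf6 3.00-fold, Myf5 1.77-fold and Met 1.21-fold. Chrna1 differed 4.17-fold and Chrng 2.45-fold, at levels under 1 TPM. The coefficient of variation of Myog was 42.2% in Disp1_CS_INDEL and 33.1% in Disp1_WT, beside medians of 9.22% and 8.32% over genes with a mean of at least 1 TPM. The ratio of Myog to Myf5 TPM in 1 embryo ran over 1.53 to 3.27 in Disp1_CS_INDEL and 1.73 to 2.87 in Disp1_WT. With group means removed (n = 8 embryos), Pearson r with Myog was 0.86 for Myf6 and 0.79 for Myf5, but 0.02 for Acta1, -0.07 for Actn2, -0.22 for Des and -0.27 for Met. Of the differentiation genes, the muscle cadherin gene Cdh15 (0.93), Myh3 (0.88) and Mylpf (0.86) were near it, as was Mymx (0.86), which was below the filter and is not among the 15 tested. Of the progenitor genes Pax7 (0.91) and Lbx1 (0.82) were near it. These are the near ones of lists that ran both ways. Of 15 differentiation genes tested 3 had an r over 0.8 and 6 a negative r (lowest Tnnt3 at -0.78, median 0.44), and of 12 progenitor genes 3 and 4 (lowest Six4 at -0.69, median 0.45). Among all 13293 other genes tested 7.35% had an r over 0.8, and the 5 nearest were Mab21l2 (0.994), Hes6 (0.989), Wsb2 (0.989), Nfasc (0.983) and Zic4 (0.979). Disp1_WT replicate 3, the highest for Myog, is also the embryo low in caudal and high in decidual transcripts. Over the 6 embryos without it and Disp1_CS_INDEL replicate 1, r with Myog was 0.86 for Myf6, 0.73 for Myf5, 0.91 for Cdh15 and 0.18 for Des, and 20.0% of genes had an r over 0.8. These are descriptions over few embryos, and the genes of 1 embryo share its library and total.

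**Figure D5:**
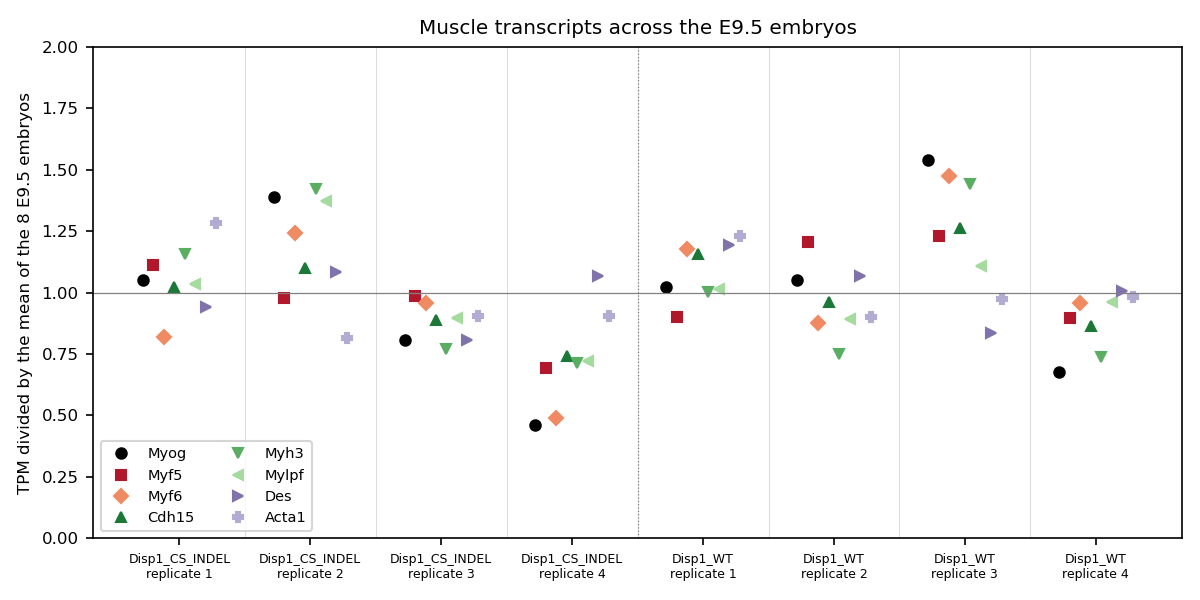
TPM of Myog, Myf5, Myf6, Cdh15, Myh3, Mylpf, Des and Acta1 in each E9.5 embryo, divided by the gene's mean over the 8 embryos. Myog, Myf6 and Myh3 are highest in Disp1_CS_INDEL replicate 2 and Disp1_WT replicate 3 and Myog is lowest in Disp1_CS_INDEL replicate 4, whereas Des and Acta1 do not follow this order.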

How the data were processed

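RNA of 17 single whole embryos had been extracted with a micro column kit and sequenced as TruSeq libraries on a NovaSeq instrument, per the labels' protocols. The authors deposited TPM for 41709 gene symbols, and each library sums to 1000000 TPM. The build is GRCm39 (mm39) per the submitters' processing notes, and the aligner, the quantifier and the annotation were not given in the sources used here. Because TPM holds no depth, each library's depth is unknown and no counting interval or detection floor is given.

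Groups came from the sample titles. TPM was transformed to log2(TPM + 1), which understates changes of genes near or under 1 TPM. The test was limma 3.58.1 (R 4.3.3) with a mean-variance trend on genes that reached 1 TPM in at least 4 of the libraries compared, and p-values were adjusted over all genes tested (Benjamini-Hochberg, 0.05). Each mutant was compared with its own wild types, the wild types with each other, and the mutant effects in a fit of all 17 libraries. The fit was tested on simulated data with known changes. Tables were handled with Python 3.11.15 and pandas 2.3.3. Promoters came from a RefSeq table of GRCm38.p6, which differs from the authors' build, and they were matched by symbol.

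The muscle genes and the gene lists were chosen with earlier results of these data known. Besides the 10 genes, the text names from each list the 4 largest called changes between the ages, else the gene with the smallest p, the 5 genes most like Myog, the targeted genes and defining heart and caudal genes, except 1 that is not reported here. Cdh15, Pax7, Six4, Tnnt3, Mb, Pvalb, Actn3, Mymk, Mymx, Myh1, Myh2, Myh4 and Prl8a2, the decidual and trophoblast list, and Lbx1, Myh3 and Mylpf in the likeness to Myog, were picked with their values in view. Actc1, Myl4, Mef2c and Ttn are named to say what the lists hold, and Actc1 also because it shares sequence with Acta1. The alternative settings changed the pseudocount (0.1), the filter (none), the scaling (median of ratios, or structural RNAs removed), the trend (none), the libraries fitted together (all), the block (replicate number) and the embryos (each left out, with the filter kept as on all libraries). Protein-coding genes only and both fits without the embryos low in caudal transcripts were added after seeing the data.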

Additional observations from a re-analysis of the deposited data

Results flagged for a closer look

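Of 75 groups of 4 or 5 embryos examined by Dixon's test (the 10 muscle genes and selected heart, caudal and decidual genes), 10 held an embryo far from the rest. For normally spread values chance flags about 1 in 20 groups. That rate cannot be set against these 10, since genes were chosen with earlier results known and some groups were at or near 0. Des was highest in Myo10_m1J replicate 2 at 42.0 TPM, and the decidual prolactin gene Prl8a2 was highest in the same embryo at 146 TPM and in Disp1_WT replicate 3 at 551 TPM. The caudal genes were lowest in Disp1_WT replicate 3, with T at 1.32, Msgn1 at 0.104 and Tbx6 at 0.495 TPM. Met was lowest in Disp1_CS_INDEL replicate 3 at 5.67 TPM, 1 of 4 values within a 1.14-fold range. In groups that were otherwise at or near 0, Myf6 was highest in Myo10_m1J replicate 3 at 0.0445 TPM, Myog in Myo10_WT replicate 1 at 0.0448 TPM and Chrng in Myo10_WT replicate 2 at 0.0312 TPM.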

How the results depend on the processing

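No call and no called direction of a muscle gene changed in any comparison under the alternatives run, which leave 0 called in both mutant comparisons and in their difference, and 7 called between the ages (9 without a filter, the added ones being Chrna1 and Chrng). Uncalled fold changes near 0 changed sign in some fits without 1 embryo, such as Actn2 in the Myo10 comparison (-0.52 to 0.49, main value -0.07). Counts over all genes moved more, and the cause was not tested. The Disp1 comparison called 4 genes, and 2 without a filter, 8 after median-of-ratios scaling, 2 in 1 fit of all libraries and 2 to 3 without 1 embryo. The Myo10 comparison called 1 gene, 2 without a filter and 1 to 3 without 1 embryo, where the 3 came without Myo10_WT replicate 4. The difference of the mutant effects called 3 genes, and 8 without a filter. Littermates are not marked, and the main fits paired no embryos. The correlations of deviations of equal replicate numbers were 0.09, 0.08, -0.24 and 0.35 in the Disp1, -0.05, 0.15, -0.29 and 0.46 in the Myo10 and -0.07, 0.04, 0.06 and 0.21 in the age comparison. Whether replicate numbers pair some of the embryos was not tested. With replicate numbers as a block the Disp1 comparison called 2 genes and the Myo10 comparison 46, of which none was one of the 10. Depth is unknown in TPM, so values of Myod1, Chrna1 and Chrng under 1 TPM carry no known precision.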
